A study of Sus scrofa with 2 samples.

Results

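TXNIP, ARRDC3, ARRDC4 and MLXIPL were followed through the cell classes of the pig pancreas. These 4 genes were chosen by symbol among the 31908 genes of the count matrices, and all 4 carried their symbol there. TXNIP, ARRDC3 and ARRDC4 belong to the alpha-arrestins, a family of adaptor proteins that bring membrane cargo such as glucose transporters to ubiquitin ligases and endocytosis. MLXIPL encodes ChREBP, a transcription factor that is activated by glucose metabolites.

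TXNIP binds thioredoxin and limits the glucose uptake of a cell, and in beta cells it is known as a glucose-induced gene whose rise accompanies oxidative stress and cell death. ChREBP and its paralog MondoA act with the partner MLX on carbohydrate response elements, and TXNIP and ARRDC4 are classical targets of these factors. ARRDC3 is known for its part in the turnover of beta-adrenergic receptors and in body mass. In the Sscrofa11.1 annotation of RefSeq, TXNIP lies on chromosome 4 (99348589 to 99351760), ARRDC3 on chromosome 2 (98430451 to 98444835), ARRDC4 on chromosome 7 (81656760 to 81669584) and MLXIPL on chromosome 3 (10898675 to 10934257). All 4 are protein-coding, and the UMIs counted here belong to whole genes.

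Single-nucleus RNA sequencing assigns each RNA molecule to a nucleus by a barcode and counts it once by its unique molecular identifier (UMI). One piece from the body of the pancreas was sequenced from 1 wild-type Bama pig (WT) and 1 transgenic Bama pig (PIGinH11). The transgenic pig carried knocked-in GIPRdn, hIAPP and PNPLA3I148M at the H11 locus under promoters specific for beta cells or liver, so none of the transgenes was directed to acinar or ductal cells. Both pigs were 18 months old, and both had the control diet up to an age of 6 months and a high-fat and high-sucrose diet (HFHSD; 37% sucrose, 53% control diet, 10% lard) for the 12 months that followed, so no group without the HFHSD stood beside them. Since each group had 1 library, no test between groups was made. The 95% intervals given below (Poisson for a level, Clopper–Pearson for a share, conditional binomial for a ratio) cover counting error only, not the spread between animals.

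After filtering, 11854 WT and 13126 PIGinH11 nuclei were kept, with medians of 3016.5 and 1167 UMIs, and 47 barcodes occurred in both libraries. Nuclei were clustered without the genes reported here, and classes were named from marker genes as acinar-like, beta-like and so on, so their borders may differ from those of the study. The hormones, which were not used for naming, marked the endocrine classes in both libraries, with 8444 and 5058 counts per 1000000 UMIs (CPM) of INS in WT and PIGinH11 beta-like nuclei, 3918 and 3138 CPM of GCG in alpha-like nuclei and 2120 and 2263 CPM of SST in delta-like nuclei. Classes were compared where each library held at least 20 nuclei. Beside 8789 and 9126 acinar-like and 2153 and 2186 ductal-like nuclei, 129 and 133 were beta-like, 71 and 82 alpha-like, 25 and 63 delta-like, 277 and 541 endothelial-like, 195 and 245 stellate-like, 38 and 84 mural-like, 30 and 43 macrophage-like and 24 and 51 lymphocyte-like. The 7 WT nuclei of the gamma-like class were too few. Acinar RNA was found in every class of both libraries, and its amount depended on the gauge. PRSS2 (trypsinogen) had 15989 CPM in WT and 850.2 CPM in PIGinH11 beta-like nuclei, but it was also lower in the PIGinH11 acinar-like nuclei themselves (48120 and 6727 CPM). The 10 acinar markers summed to 3607 and 5408 CPM in beta-like nuclei, beside 22875 and 21442 CPM in acinar-like nuclei.

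Levels are given as CPM of the UMIs summed over a class, and changes as the log2 of the PIGinH11 level over the WT level. They are compared between classes and libraries for 1 gene at a time, since UMIs from the 3′ end are not a measure per length that would set 1 gene against another. Of all UMIs of a gene in the nuclei kept, the acinar-like nuclei held 89.9% in WT and 90.2% in PIGinH11 for TXNIP, 69.5% and 71.3% for ARRDC3, and 54.8% and 48.3% for ARRDC4, but only 9.84% and 18.9% for MLXIPL. TXNIP was thus carried mostly by the exocrine mass of the organ, and MLXIPL mostly by other cells. Of the UMIs of all genes, acinar-like nuclei held 31513993 of 43625670 in WT and 15615061 of 22393692 in PIGinH11. Over all nuclei kept, ARRDC3 had 14.1 and 25.3 CPM, near its acinar-like levels of 13.6 and 25.9 CPM. ARRDC4 had 27.0 and 14.1 CPM over all nuclei, above its acinar-like levels of 20.5 and 9.73 CPM.

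**Figure D1:**
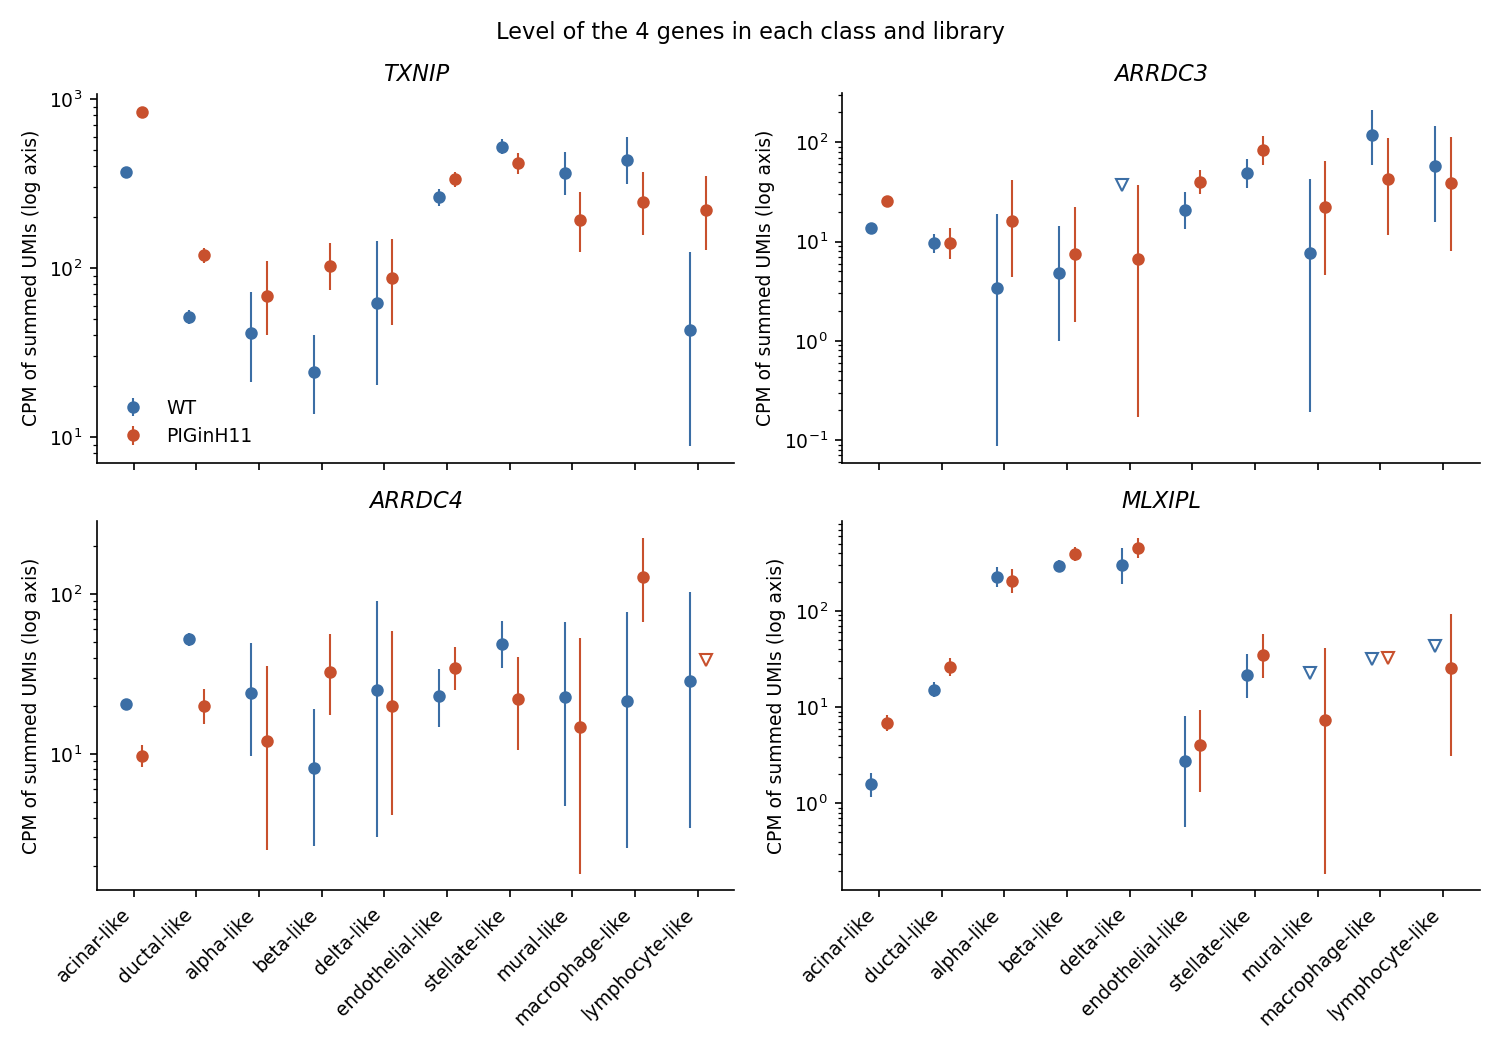
CPM of TXNIP, ARRDC3, ARRDC4 and MLXIPL (log axis) in the 10 classes that were compared, WT in blue and PIGinH11 in orange, with exact 95% Poisson intervals of the counting error; open triangles mark the limit of 3 UMIs where none was counted. TXNIP is high in acinar-like, endothelial-like, stellate-like, mural-like and macrophage-like nuclei, and MLXIPL in the alpha-like, beta-like and delta-like nuclei.

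In acinar-like nuclei TXNIP had 368 CPM in WT (362 to 375, 11603 UMIs) and 843 CPM in PIGinH11 (829 to 858, 13164 UMIs). The level was 2.29-fold higher in PIGinH11, a log2 ratio of 1.20 (1.16 to 1.23). Over the genes that had at least 20 UMIs in both libraries, the median log2 ratio was 0.27 in this class, and relative to it that of TXNIP was 0.92. Of the 15767 genes compared, 12.3% had a ratio as high as that of TXNIP. Counted per nucleus and not as CPM, the acinar-like nuclei held 1.32 TXNIP UMIs in WT and 1.44 in PIGinH11, so the higher level appeared against the smaller number of UMIs in a PIGinH11 nucleus.

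The share of acinar-like nuclei with a TXNIP UMI was 48.5% in WT and 54.2% in PIGinH11, at medians of 2876 and 1201 UMIs per nucleus. With each nucleus thinned to 500 UMIs, the shares were 13.7% (13.02 to 14.5) and 28.3% (27.4 to 29.2). The gap between the libraries was thus wider once nuclei were compared at 1 depth. Thinned to 1000 UMIs, at least 2 TXNIP UMIs were found in 5.69% of WT and 20.0% of PIGinH11 acinar-like nuclei, and at least 5 in 0.127% and 0.615%.

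Within each library, the CPM of TXNIP in acinar-like nuclei was higher above 4000 UMIs than below 2000 UMIs. In WT the level was 216 CPM in nuclei with 500 to 1000 UMIs, 218 CPM at 1000 to 2000, 294 CPM at 2000 to 4000, 429 CPM at 4000 to 8000 and 421 CPM at 8000 to 13000. The same steps gave 579.6, 671, 948, 1093 and 1075 CPM in PIGinH11. PIGinH11 was higher in all 5 steps of depth, and nuclei with 1000 to 2000 UMIs alone gave a log2 ratio of 1.62.

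TXNIP was also higher in PIGinH11 in each of the 5 acinar-like clusters. Cluster 2, the deepest by its median in PIGinH11, had 406 CPM in WT and 1003 CPM in PIGinH11 (log2 ratio 1.31, 1.25 to 1.36). Cluster 4, whose leading genes include ATF5, a transcription factor of the stress response, had 478 and 813 CPM and the lowest ratio of the 5 (0.77, 0.68 to 0.85). Cluster 6, led by the enzyme genes CELA2A, CPA1 and PRSS2, had 218 and 1012 CPM and the highest ratio (2.22, 2.09 to 2.35). In this cluster PRSS2 alone took 210051 CPM in WT and 20938 CPM in PIGinH11, which enters the denominator of every other gene. The median log2 ratio over genes was 0.89 there. Relative to the median of its cluster, TXNIP had 1.32 in cluster 6 and 1.23 in cluster 2. Clusters 1 and 3 had 229 and 310 CPM in WT and 492 and 713 CPM in PIGinH11, so the range of the 5 clusters in WT, from 218 to 478 CPM, lay below the lowest of them in PIGinH11.

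**Figure D2:**
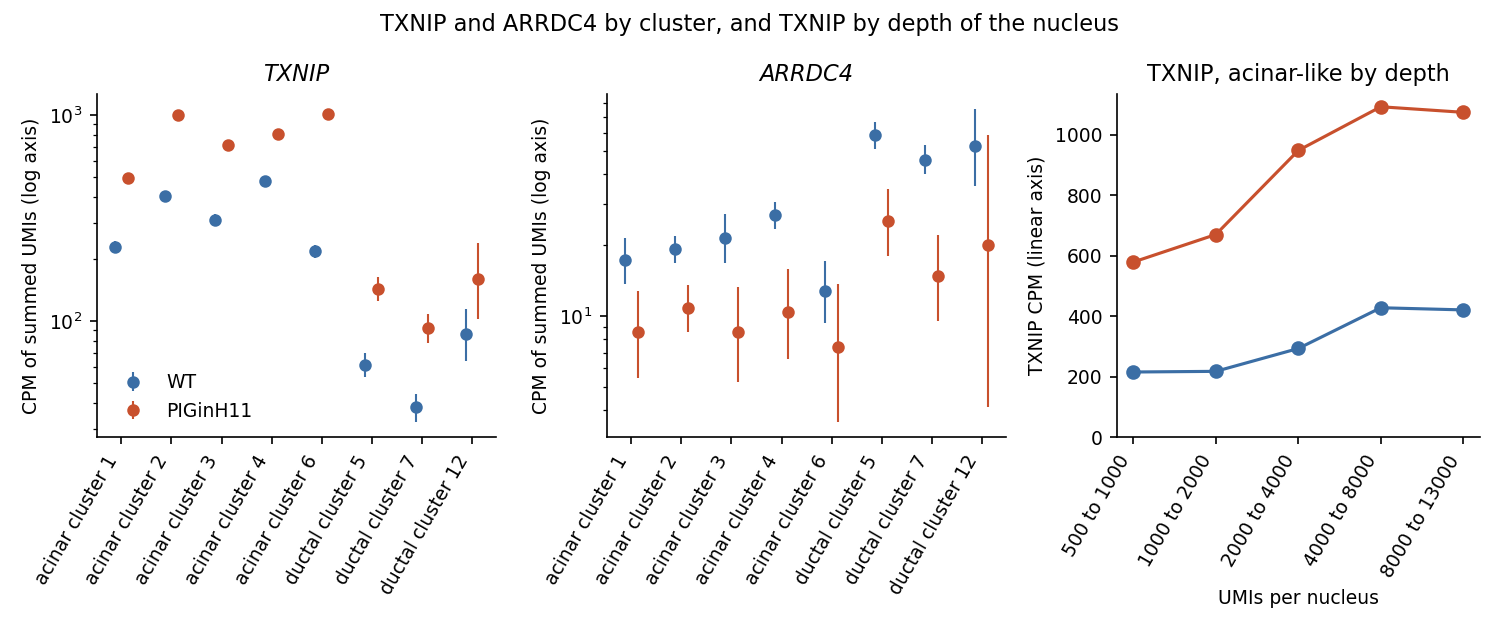
CPM of TXNIP and ARRDC4 (log axes) in each acinar-like and ductal-like cluster with exact 95% Poisson intervals, and CPM of TXNIP in acinar-like nuclei by the UMIs of the nucleus (linear axis), WT in blue and PIGinH11 in orange. The level of TXNIP is higher and that of ARRDC4 lower in PIGinH11 in all 8 clusters, and in both libraries the CPM of TXNIP is higher in nuclei above 4000 UMIs than in those below 2000 UMIs.

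Ductal-like nuclei had less TXNIP than acinar-like nuclei in both libraries, with 51.6 CPM in WT (46.9 to 56.6, 443 UMIs) and 119 CPM in PIGinH11 (108 to 131, 394 UMIs). The log2 ratio was 1.21 (1.01 to 1.41), and it differed from that of acinar-like nuclei by 0.01 (−0.19 to 0.21). Counted per nucleus, ductal-like nuclei held 0.206 TXNIP UMIs in WT and 0.180 in PIGinH11, lower in PIGinH11 where the acinar-like count was higher. With nuclei thinned to 500 UMIs, 3.34% (2.63 to 4.19) of WT and 6.50% (5.50 to 7.61) of PIGinH11 ductal-like nuclei held a TXNIP UMI, and unthinned 16.6% and 14.7%, at medians of 3404 and 1026.5 UMIs. Among ductal-like nuclei with 1000 to 2000 UMIs, the level was 85.0 CPM in WT and 111 CPM in PIGinH11 (53 and 103 UMIs). The log2 ratio of 0.38 in these nuclei was smaller than in the whole class.

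Whether acinar RNA could carry that much TXNIP into ductal-like droplets depended on the gauge. Ductal-like nuclei held 17467 CPM of PRSS2 in WT and 1713 CPM in PIGinH11, 36.3% and 25.5% of the acinar-like level. Were all of this PRSS2 acinar RNA, the TXNIP of acinar-like nuclei would come with it at 134 CPM in WT and 215 CPM in PIGinH11, more than was measured. The summed acinar markers stood at 7.60% and 11.7% of the acinar-like level, and by them, a gauge added after seeing the data, 28.0 and 98.6 CPM would be carried, less than was measured. How much of the ductal-like TXNIP, and of its ratio, was acinar RNA was not settled by these values.

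The endocrine classes held little TXNIP. It had 24.4 CPM in WT (13.6 to 40.2, 15 UMIs) and 103 CPM in PIGinH11 (74.0 to 139.9, 41 UMIs) beta-like nuclei, against 122 and 107 CPM that acinar RNA would carry by their PRSS2 and 58.1 and 213 CPM by the acinar markers. Both gauges lay above the measured levels, but the first was lower and the second higher in PIGinH11. The log2 ratio of 2.08 (1.20 to 3.04) shrank to 0.22 with nuclei thinned to 500 UMIs and turned to −1.12 among nuclei with 1000 to 2000 UMIs, where each library held 4 TXNIP UMIs. The thinned shares were 3.88% (1.27 to 8.81) in WT and 3.76% (1.23 to 8.56) in PIGinH11, and unthinned 10.1% and 21.8%, at medians of 4216 and 2247 UMIs. A difference of TXNIP between the libraries was thus not detectable in beta-like nuclei at this depth. TXNIP had 41.2 and 68.6 CPM in alpha-like nuclei (12 and 17 UMIs) and 62.3 and 86.8 CPM in delta-like nuclei (5 and 13 UMIs), each below the level carried by PRSS2, which was 127 and 188 CPM in the alpha-like and 148 and 199 CPM in the delta-like nuclei. By the acinar markers 38.4 and 121 CPM would be carried in the alpha-like and 50.6 and 193 CPM in the delta-like nuclei, within the WT intervals and above the PIGinH11 levels.

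**Figure D3:**
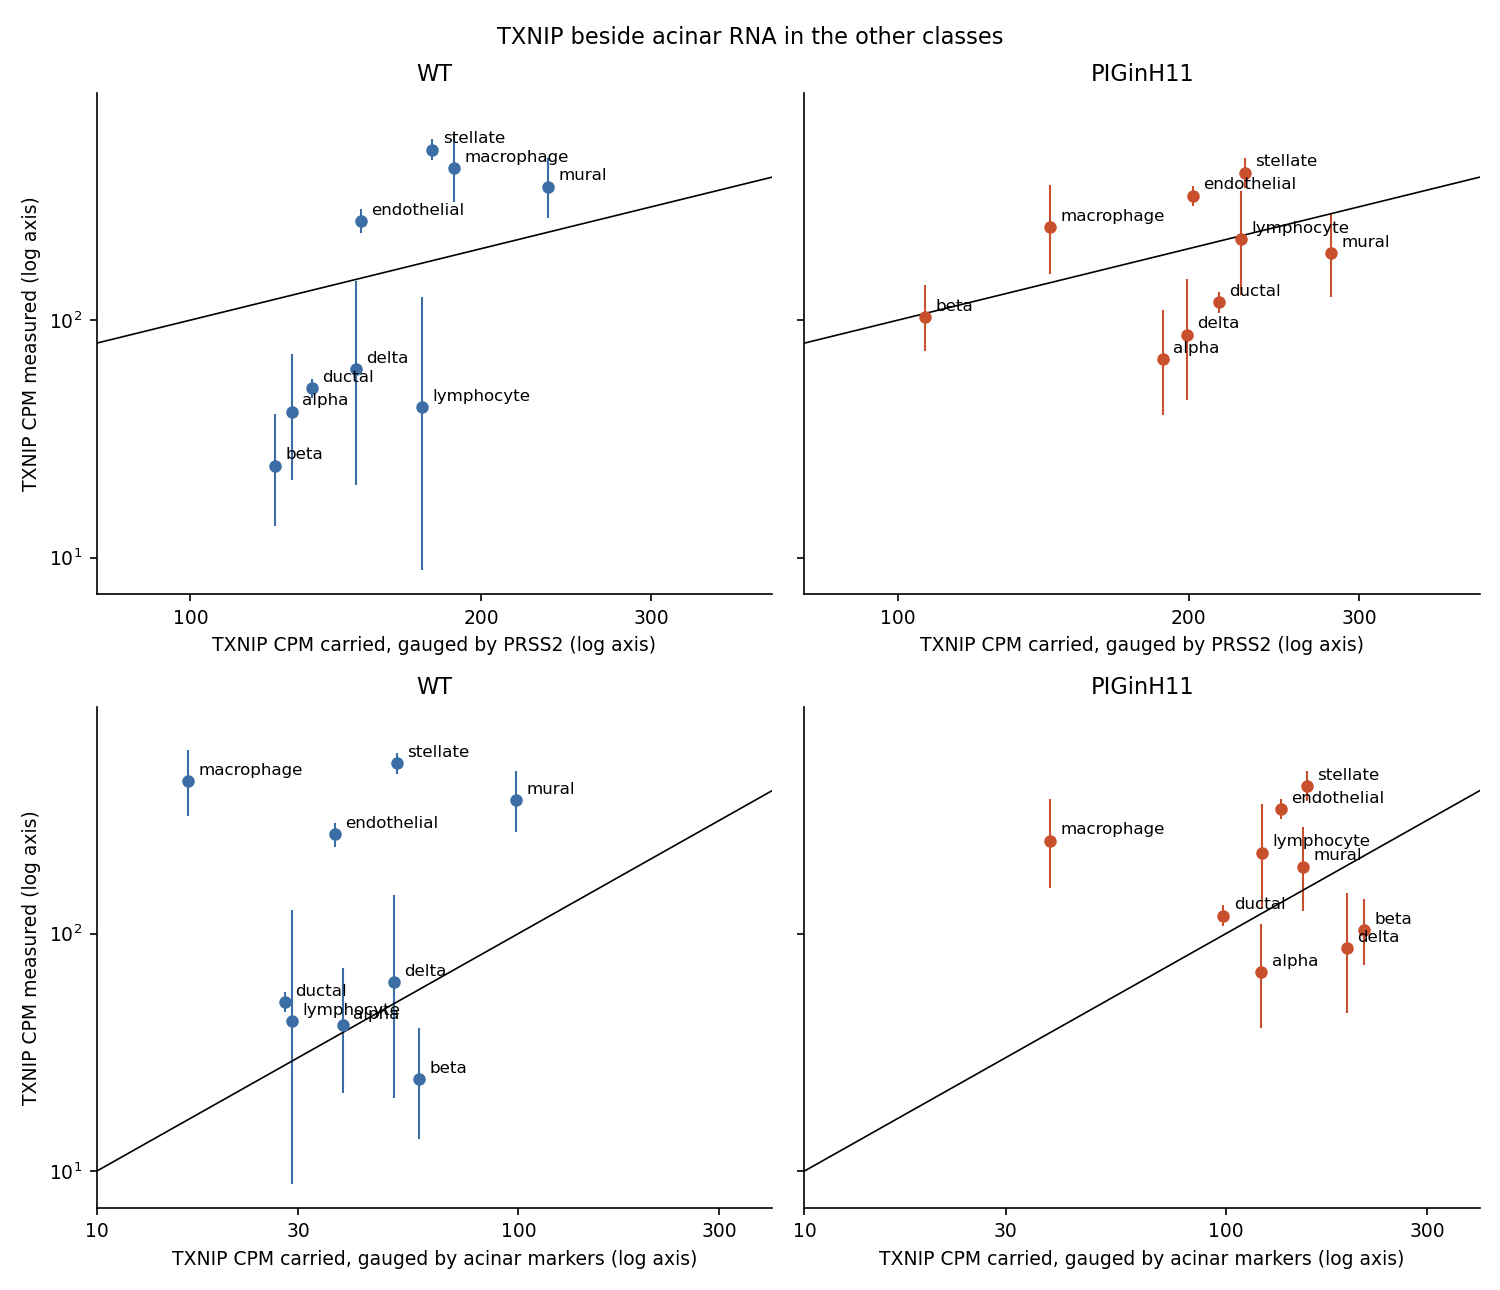
TXNIP CPM measured in each class (log axis) against the TXNIP CPM that acinar RNA would carry (log axis) if all PRSS2 (top) or all acinar marker RNA (bottom) of the class came with the TXNIP of acinar-like nuclei, with exact 95% Poisson intervals and the line of equal values. Stellate-like, endothelial-like and macrophage-like nuclei lie above the line by both gauges, beta-like nuclei lie below it by both, and ductal-like nuclei lie below it by PRSS2 and above it by the markers.

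Endothelial-like, stellate-like and macrophage-like nuclei held more TXNIP than acinar RNA would carry in both libraries by both gauges. Stellate-like nuclei, the collagen-producing mesenchymal cells of the pancreas, had 522 CPM in WT (471 to 577, 384 UMIs) and 418 CPM in PIGinH11 (361 to 482, 190 UMIs), beside carried levels of 178 and 228 CPM by PRSS2. The class was highest of all in WT, and its interval overlapped that of the macrophage-like nuclei. In PIGinH11 the acinar-like nuclei stood above all other classes without overlap, and the stellate-like nuclei followed.

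The log2 ratio of TXNIP in stellate-like nuclei was −0.32 (−0.58 to −0.07), 1.52 below that of acinar-like nuclei (difference −1.52, −1.77 to −1.26). This direction was not kept in every setting, and the part of depth in it was not tested. Nuclei with 1000 to 2000 UMIs had 469 CPM in WT and 475 CPM in PIGinH11, on only 27 and 48 UMIs. The thinned shares were 20.5% (15.1 to 26.9) and 22.0% (17.0 to 27.8), beside 64.1% and 42.9% unthinned at medians of 3323 and 1200 UMIs. Under a UMI limit of 1300, which lies below the median of the WT nuclei, the ratio was 1.48.

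Endothelial-like nuclei had 261 CPM of TXNIP in WT (232 to 294, 286 UMIs) and 334 CPM in PIGinH11 (303 to 368, 415 UMIs), beside carried levels of 150 and 202 CPM by PRSS2. The log2 ratio of 0.35 (0.13 to 0.58) was 0.84 below that of acinar-like nuclei (difference −0.84, −1.06 to −0.62). Nuclei with 1000 to 2000 UMIs had 290.0 and 384 CPM, on 17 and 77 UMIs. The thinned shares were 9.75% (6.52 to 13.9) and 17.6% (14.4 to 21.0), beside 50.5% and 43.8% unthinned at medians of 3860 and 1621 UMIs. PIGinH11 thus had the higher share only once nuclei were thinned. The class held 2 clusters in unequal parts, with 214 WT and 297 PIGinH11 nuclei in cluster 8 and 63 and 244 in cluster 11. Within them TXNIP had 229 and 299.6 CPM (log2 ratio 0.39, 0.10 to 0.68) and 355 and 382 CPM (0.10, −0.25 to 0.47).

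The small classes gave wide intervals. Macrophage-like nuclei had 438 CPM of TXNIP in WT (314 to 594, 41 UMIs) and 246 CPM in PIGinH11 (156 to 369, 23 UMIs), a log2 ratio of −0.83 (−1.63 to −0.06). Their thinned shares were 20.0% (7.71 to 38.6) and 11.6% (3.89 to 25.1), with overlapping intervals, at medians of 2762.5 and 1072 UMIs. Mural-like nuclei, the contractile cells around vessels, had 364 CPM (48 UMIs) and 191 CPM (26 UMIs), a log2 ratio of −0.93 (−1.68 to −0.21), and acinar RNA would carry 234 and 281 CPM there by PRSS2 and 98.9 and 153 CPM by the markers. Lymphocyte-like nuclei held 3 and 17 TXNIP UMIs, at 42.9 and 219 CPM, below the 174 and 226 CPM carried by PRSS2 and above the 29.0 and 122 CPM carried by the markers.

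Levels of ARRDC3 were low, and highest outside the epithelium. In WT the order was macrophage-like (117 CPM, 11 UMIs), lymphocyte-like (57.1 CPM, 4 UMIs), stellate-like (48.9 CPM, 36 UMIs) and endothelial-like nuclei (21.0 CPM, 23 UMIs), followed by acinar-like nuclei with 13.6 CPM (12.3 to 14.9, 428 UMIs). Of these neighbours, only the stellate-like and endothelial-like intervals did not overlap. In PIGinH11 stellate-like nuclei came first with 83.6 CPM (59.1 to 115, 38 UMIs). An unnamed cluster led by XKR4, CDH19 and SCN7A, with 47 and 152 nuclei, held 142 CPM of ARRDC3 in WT (22 UMIs) and 97.2 CPM in PIGinH11 (17 UMIs), among the highest levels of this gene.

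In acinar-like nuclei ARRDC3 had 13.6 CPM in WT and 25.9 CPM in PIGinH11 (23.4 to 28.5, 404 UMIs), a log2 ratio of 0.93 (0.73 to 1.13) and 0.66 relative to the median of the class. Of all genes compared, 20.2% had a ratio as high. All 5 acinar-like clusters had more ARRDC3 in PIGinH11, with log2 ratios from 0.68 in cluster 4 to 2.07 in cluster 6. Relative to the medians of these clusters, the values were 0.59 and 1.17. The thinned shares were 0.637% (0.482 to 0.827) and 1.49% (1.25 to 1.76), and the unthinned ones 4.32% and 4.10%.

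In ductal-like nuclei ARRDC3 had 9.66 CPM in WT (83 UMIs) and 9.67 CPM in PIGinH11 (32 UMIs), a log2 ratio of 0.00 (−0.63 to 0.61). The ratio lay 0.93 below that of acinar-like nuclei (difference −0.93, −1.55 to −0.31). It varied between settings, at 0.98 with nuclei thinned to 500 UMIs, 2.11 under a UMI limit of 1300 and −0.94 among nuclei with 1000 to 2000 UMIs. The last value rests on 9 and 7 UMIs, and the thinned shares were 0.418% (9 nuclei) and 0.823% (18 nuclei). Endothelial-like nuclei had 21.0 and 40.3 CPM (log2 ratio 0.94, 0.20 to 1.72), and stellate-like nuclei 48.9 and 83.6 CPM (0.77, 0.08 to 1.47), neither of which differed from the acinar-like ratio beyond counting error. The endothelial-like value came mostly from cluster 11, with 10.8 and 59.5 CPM (3 and 31 UMIs), while cluster 8 had 24.5 and 26.4 CPM (0.10, −0.88 to 1.08), and it was 1.84 thinned and 0.23 at 1000 to 2000 UMIs. Endocrine classes held at most 4 ARRDC3 UMIs in a library, too few for a comparison.

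ARRDC4 was lower in PIGinH11 in acinar-like and ductal-like nuclei. Acinar-like nuclei had 20.5 CPM in WT (18.9 to 22.1, 645 UMIs) and 9.73 CPM in PIGinH11 (8.25 to 11.4, 152 UMIs). The level was 2.10-fold lower in PIGinH11, a log2 ratio of −1.07 (−1.34 to −0.82) and −1.34 relative to the class median, and 1.81% of the genes compared had a ratio as low. All 5 clusters had a lower level in PIGinH11, between −0.79 in cluster 6, where the interval reached 0.22, and −1.36 in cluster 4. The median log2 ratio over genes was 0.89 in cluster 6 and 0.09 in cluster 4. Relative to it, ARRDC4 had −1.68 in cluster 6 and −1.45 in cluster 4, so the order of these clusters depended on the scaling.

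The size of this gap varied between steps of depth, without a steady trend. ARRDC4 had 25.0 and 9.96 CPM in WT and PIGinH11 acinar-like nuclei with 500 to 1000 UMIs, 13.4 and 11.2 CPM at 1000 to 2000, 20.5 and 8.73 CPM at 2000 to 4000, 20.9 and 9.83 CPM at 4000 to 8000, and 22.6 and 5.03 CPM at 8000 to 13000. WT was higher in all 5 steps, and least so at 1000 to 2000 UMIs, where the log2 ratio was −0.26 on 41 and 50 UMIs. The thinned shares were 0.853% (0.672 to 1.07) in WT and 0.405% (0.286 to 0.558) in PIGinH11, beside 6.33% and 1.59% unthinned.

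Ductal-like nuclei held more ARRDC4 than acinar-like nuclei in both libraries, 52.0 CPM in WT (47.3 to 57.1, 447 UMIs) and 19.9 CPM in PIGinH11 (15.4 to 25.4, 66 UMIs). In WT this was the highest class, in overlap with the stellate-like nuclei. The level was 2.61-fold lower in PIGinH11, a log2 ratio of −1.38 (−1.78 to −1.01), and 0.547% of the 11153 genes compared in this class had a ratio as low. Clusters 5 and 7 of the ductal-like nuclei had 58.4 and 46.2 CPM in WT and 25.3 and 14.8 CPM in PIGinH11, and cluster 12 had 52.9 and 20.0 CPM. At 1000 to 2000 UMIs the levels were 46.5 and 19.3 CPM, and the thinned shares 2.18% (1.61 to 2.89) and 1.19% (0.778 to 1.74), beside 16.9% and 2.79% unthinned.

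Outside the exocrine classes ARRDC4 showed no common direction. Stellate-like nuclei had 48.9 CPM in WT (36 UMIs) and 22.0 CPM in PIGinH11 (10 UMIs), a log2 ratio of −1.15 (−2.33 to −0.11). Endothelial-like nuclei had 22.9 CPM (25 UMIs) and 34.6 CPM (43 UMIs), a log2 ratio of 0.60 (−0.14 to 1.37) that lay 1.67 (0.92 to 2.43) above that of acinar-like nuclei. Beta-like nuclei held 5 and 13 ARRDC4 UMIs, at 8.12 and 32.7 CPM, and macrophage-like nuclei 2 and 12 UMIs, at 21.3 and 128 CPM.

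**Figure D4:**
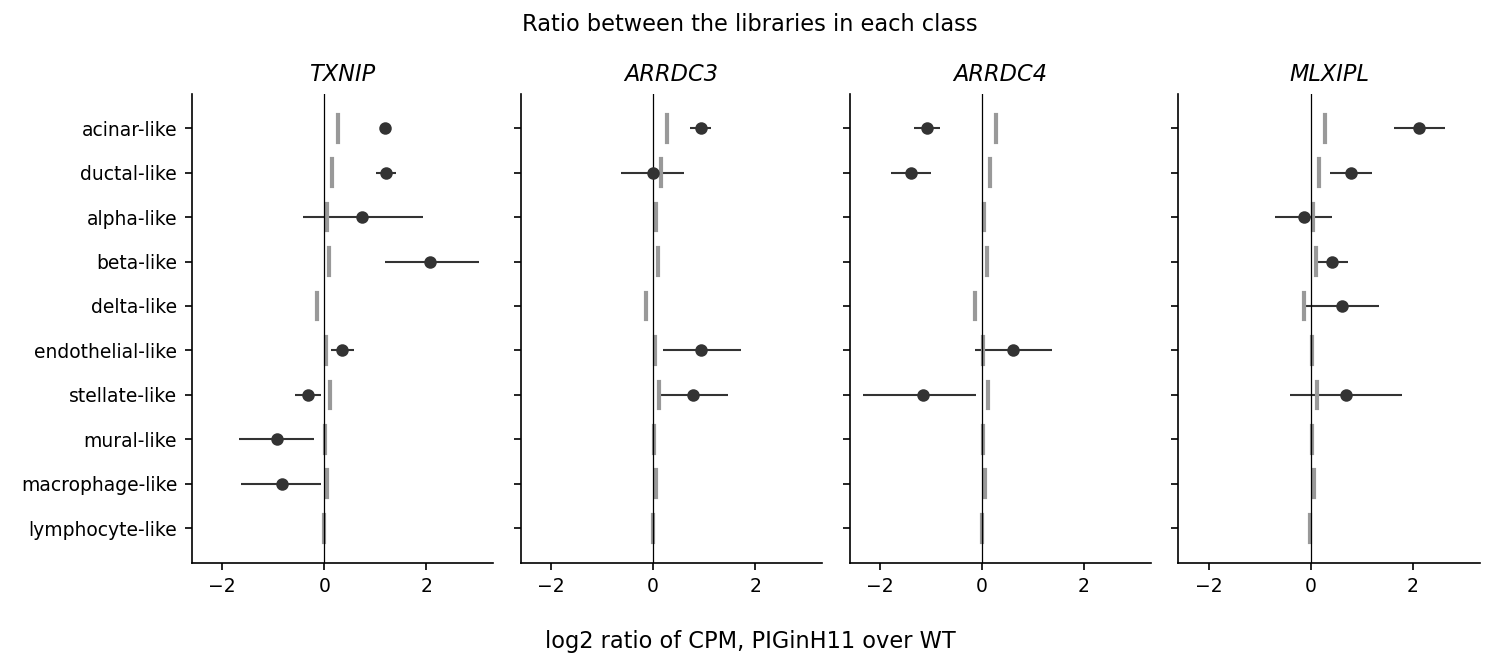
Log2 ratio of CPM (PIGinH11 over WT) of the 4 genes in each class with at least 10 UMIs of the gene in each library, with exact 95% conditional binomial intervals of the counting error; grey ticks mark the median ratio over genes that had at least 20 UMIs in both libraries. In acinar-like nuclei TXNIP (1.20), ARRDC3 (0.93) and MLXIPL (2.12) lie to the right of the grey tick and ARRDC4 (−1.07) to its left.

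MLXIPL was an endocrine gene in both libraries. Delta-like nuclei had 299 CPM in WT (192 to 445, 24 UMIs) and 454 CPM in PIGinH11 (353 to 576, 68 UMIs), beta-like nuclei 292 CPM (251 to 338, 180 UMIs) and 389.9 CPM (331 to 456, 155 UMIs), and alpha-like nuclei 226 CPM (175 to 288, 66 UMIs) and 206 CPM (153 to 270.5, 51 UMIs). In WT these 3 intervals overlapped and lay above those of all other classes. In PIGinH11 the delta-like and beta-like intervals overlapped and the alpha-like one lay below them.

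Between the libraries, MLXIPL had a log2 ratio of 0.42 (0.10 to 0.73) in beta-like, 0.60 (−0.09 to 1.34) in delta-like and −0.14 (−0.70 to 0.41) in alpha-like nuclei. The beta-like ratio was as high in 24.1% of the 3712 genes compared there. The thinned shares of beta-like nuclei with a MLXIPL UMI were 17.1% (11.0 to 24.7) in WT and 22.6% (15.8 to 30.6) in PIGinH11, with overlapping intervals, beside 65.9% and 58.6% unthinned.

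Ductal-like nuclei held 15.2 CPM of MLXIPL in WT (12.7 to 18.1, 131 UMIs) and 26.3 CPM in PIGinH11 (21.1 to 32.4, 87 UMIs), a log2 ratio of 0.79 (0.38 to 1.19). Free endocrine RNA was gauged by INS, of which ductal-like nuclei had 162 and 100.3 CPM, and the MLXIPL of beta-like nuclei would come with it at 5.62 and 7.73 CPM, less than was measured. The ratio was 1.77 with nuclei thinned to 500 UMIs and 1.87 under a UMI limit of 1300. Ductal cluster 5 had 17.1 and 35.7 CPM, and cluster 7, the deepest of the ductal-like clusters, had 13.5 and 14.2 CPM (log2 ratio 0.08, −0.69 to 0.80). Stellate-like nuclei had 21.7 and 35.2 CPM on 16 UMIs in each library.

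In acinar-like nuclei MLXIPL was near the limit of detection, with 1.59 CPM in WT (1.18 to 2.09, 50 UMIs) and 6.92 CPM in PIGinH11 (5.67 to 8.35, 108 UMIs). The log2 ratio of 2.12 (1.63 to 2.64) was higher than that of MLXIPL in each of the other classes with a ratio, and 0.945% of the genes compared had one as high. The INS of these nuclei, 206 CPM in WT and 98.4 CPM in PIGinH11, would bring 7.12 and 7.59 CPM of MLXIPL at the ratio of beta-like nuclei, more than was measured. Gauged by the summed endocrine markers, also after seeing the data, 1.26 and 3.54 CPM would be carried, less than was measured in PIGinH11 and within the interval in WT. At such levels the ratio is not read as a change in acinar-like nuclei, and the part of free RNA in it was not tested. No MLXIPL UMI was counted in macrophage-like nuclei, where 3 UMIs would be 32.0 CPM in WT and 32.1 CPM in PIGinH11.

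Among genes that had at least 20 UMIs in both libraries, 18% of acinar-like genes were at least 2-fold higher in PIGinH11 and 2.15% at least 2-fold lower. Of the 4 genes, all of which passed this minimum, TXNIP and MLXIPL were higher and ARRDC4 lower. In ductal-like nuclei 11.8% were higher, TXNIP among them, and 1.82% lower, ARRDC4 among them. In beta-like nuclei, with 3.53% higher and 1.59% lower, MLXIPL was the only one of the 4 that passed the minimum, and it was within 2-fold. In endothelial-like nuclei, with 2.91% higher and 2.56% lower, TXNIP, ARRDC3 and ARRDC4 passed the minimum, and in stellate-like nuclei, with 3.69% higher and 1.68% lower, TXNIP and ARRDC3, all within 2-fold. The 2-fold rise of TXNIP in acinar-like nuclei was thus shared with many genes of that class, while the 2-fold fall of ARRDC4 was shared with few.

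TXNIP and ARRDC4 went apart in acinar-like nuclei. These nuclei held 18.0 TXNIP UMIs for each ARRDC4 UMI in WT and 86.6 in PIGinH11, and the log2 ratio of ARRDC4 was 2.27 below that of TXNIP (difference −2.27, −2.52 to −2.01). Ductal-like nuclei held 0.991 and 5.97 (difference −2.59, −3.01 to −2.17), where TXNIP lay below the level that acinar RNA would carry by PRSS2 and above it by the acinar markers. In endothelial-like nuclei the counts stood at 11.4 and 9.65 TXNIP UMIs for each ARRDC4 UMI, and the difference of 0.25 (−0.50 to 0.99) did not pass counting error. TXNIP and ARRDC3 differed less, with 27.1 and 32.6 TXNIP UMIs for each ARRDC3 UMI in acinar-like nuclei (difference −0.27, −0.46 to −0.07).

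Nuclei with TXNIP did not stand out for the other arrestins. Among acinar-like nuclei thinned to 500 UMIs, ARRDC4 had 24.9 CPM (13.9 to 41.0, 15 UMIs) in the 1207 WT nuclei with a TXNIP UMI and 16.6 CPM (12.8 to 21.3, 63 UMIs) in the 7582 without. In PIGinH11 the corresponding values were 7.75 CPM (3.71 to 14.2) in 2582 nuclei and 8.25 CPM (5.44 to 12.0) in 6544 nuclei. ARRDC3 had 6.63 CPM (1.81 to 17.0) and 13.7 CPM (10.2 to 18.0) in WT, and 30.2 CPM (21.5 to 41.3) and 29.95 CPM (24.3 to 36.5) in PIGinH11. All of these pairs of intervals overlapped, and a difference was not detectable at this depth.

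The lists of genes around this pathway are given beside the 18% of genes at least 2-fold higher and the 2.15% at least 2-fold lower in acinar-like nuclei. These shares were 11.8% and 1.82% in ductal-like, 3.53% and 1.59% in beta-like, and 2.91% and 2.56% in endothelial-like nuclei. Of the Mondo family and the Max-like partners, a list that holds MLX, all 6 passed the minimum and none changed 2-fold. Their median log2 ratio was 0.02 against 0.27 over all genes. MLXIP, which encodes MondoA, had 151 CPM in WT and 173 CPM in PIGinH11, and MLX 16.1 and 17.5 CPM. Of 12 carbohydrate response targets that passed the minimum, 1 was 2-fold lower and none 2-fold higher (median 0.17). The one that fell was KLF10, a glucose- and TGF-beta-responsive repressor (23.4 and 5.51 CPM, log2 ratio −2.09, −2.43 to −1.76). In ductal-like nuclei 1 of 8 such targets was 2-fold higher, the fatty acid elongase ELOVL6 (11.3 and 41.1 CPM, 1.86, 1.48 to 2.26).

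Of the other arrestins, 4 of 5 passed the minimum in acinar-like nuclei, and only the beta-arrestin ARRB1 changed 2-fold, from 284 CPM in WT to 128 CPM in PIGinH11 (log2 ratio −1.15, −1.22 to −1.08). The alpha-arrestins ARRDC1 and ARRDC2 had 19.6 and 7.17 CPM in WT and 25.6 and 8.52 CPM in PIGinH11. Of 8 ligases of the NEDD4 family, to which alpha-arrestins bind, 1 was 2-fold higher in acinar-like nuclei, HECW1 (3.90 and 11.0 CPM), and in ductal-like nuclei HECW1 (3.49 and 21.2 CPM) and NEDD4 (4.77 and 12.4 CPM) were. Neither direction was common to the list, whose median was 0.14 in acinar-like and −0.05 in ductal-like nuclei.

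The thioredoxin system, to which the binding partner of TXNIP belongs, had 10 genes past the minimum in acinar-like nuclei and none with a 2-fold change (median 0.30). Only 11 of its 13 listed genes could be matched by symbol. TXN, the gene of thioredoxin itself, could not, so its level was not measured. In ductal-like nuclei 1 of 9 was 2-fold higher, the peroxiredoxin PRDX1 (6.17 and 13.6 CPM). Of 9 genes of glucose uptake and phosphorylation, 2 were 2-fold higher in acinar-like nuclei, a share near that of all genes, and these were the hexokinases HKDC1 (1.17 and 8.39 CPM, 2.84, 2.30 to 3.40) and HK2 (1.49 and 3.71 CPM, 1.32, 0.74 to 1.90). None of the 6 that passed the minimum in ductal-like nuclei, the 4 in beta-like nuclei and the 3 in endothelial-like nuclei did so. The glucose transporter genes SLC2A1 and SLC2A3 of this list could not be matched by symbol and were not measured.

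Stress signalling genes listed beside TXNIP, some of them named with it by the study and not known here as its partners, went both ways in acinar-like nuclei. Of 8, 1 was at least 2-fold higher and 3 were at least 2-fold lower (median −0.28). TNFAIP8, a regulator of apoptosis, rose from 13.3 to 196 CPM (3.88, 3.73 to 4.03). ATF5 fell from 195 to 19.3 CPM (−3.34, −3.51 to −3.17), SSR4, a subunit of the translocon, from 58.3 to 16.1 CPM (−1.86, −2.06 to −1.67), and DDIT4, a stress-induced inhibitor of mTORC1, from 141 to 68.5 CPM (−1.04, −1.14 to −0.95). The study had chosen TXNIP, TNFAIP8, ATF5 and SSR4 on the same libraries, so their directions, that of TXNIP in acinar-like nuclei included, are not independent evidence. MAP3K5, the ASK1 kinase that thioredoxin holds inactive, had 499 and 435 CPM.

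**Figure D5:**
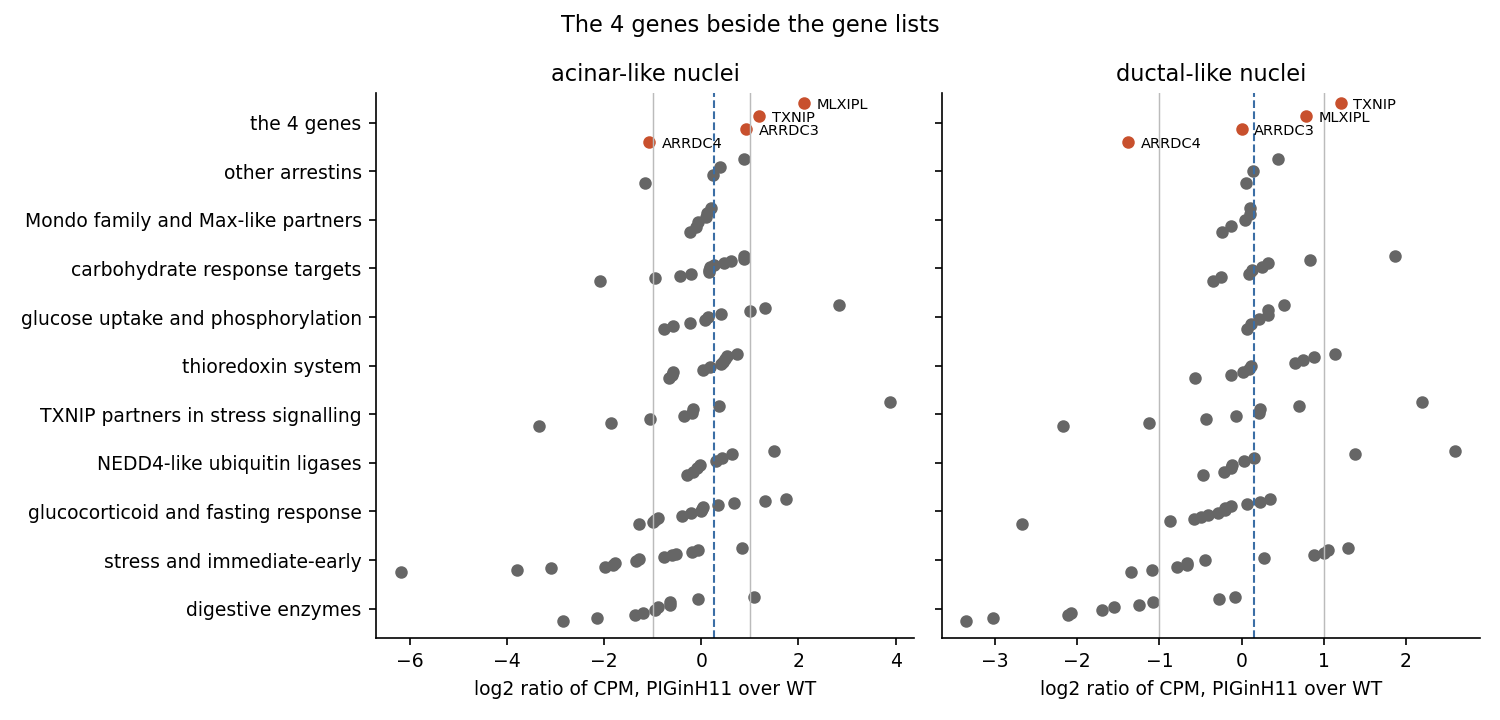
Log2 ratio of CPM (PIGinH11 over WT) of the 4 genes (orange) and of each listed gene that had at least 20 UMIs in both libraries (grey), in acinar-like and ductal-like nuclei; the dashed line is the median of all genes with this minimum (0.27 and 0.15) and the grey lines mark a 2-fold change. The Mondo family, the carbohydrate response targets and the thioredoxin system lie mostly between the grey lines. To the left of them lie 8 of 14 stress and 4 of 10 digestive enzyme genes in acinar-like nuclei. In ductal-like nuclei 2 of 11 stress and 8 of 10 digestive enzyme genes do so, and 3 stress genes lie to the right.

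Of the glucocorticoid and fasting genes, which include other regulators of fuel choice, 2 of 13 were 2-fold higher in acinar-like nuclei and 1 was 2-fold lower (median −0.01). PDK4, which turns cells from glucose to fat oxidation, rose from 153 to 510.2 CPM (1.74, 1.68 to 1.79), the transcription factor gene CEBPD from 1.65 to 4.10 CPM, and KLF9 fell from 167 to 69.2 CPM (−1.27, −1.37 to −1.18). In ductal-like nuclei 1 of 12 was 2-fold lower, the kinase SGK1 (271 and 42.6 CPM). PDK4 also rose in endothelial-like nuclei, from 61.3 to 152 CPM (1.31, 0.90 to 1.74), where ZBTB16 and KLF9 fell.

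Of the heat-shock and immediate-early genes, 8 of 14 were at least 2-fold lower in PIGinH11 acinar-like nuclei, none was 2-fold higher and 6 did not pass (median −1.31). HSP70.2, which had 811 CPM in WT, fell by far the most of the list (log2 ratio −6.18, −6.41 to −5.97) and FOS from 39.2 to 2.82 CPM (−3.80, −4.27 to −3.37). In ductal-like nuclei 2 of 11 were lower and 3 higher, among them JUN (1.29) and ATF3 (1.05), and in endothelial-like nuclei 2 of 9 were lower. Of the digestive enzymes, which the study also chose on these libraries, 4 of 10 were 2-fold lower and 1 was 2-fold higher in acinar-like nuclei. PRSS2 was among the lower ones, with 48120 CPM in WT and 6727 CPM in PIGinH11. In ductal-like nuclei, 8 of 10 were 2-fold lower, in beta-like nuclei 7 of 9 and in endothelial-like nuclei 7 of 10. The part of tissue handling, enzyme RNA and depth in the ratios of TXNIP and ARRDC4 was not tested.

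Over the 10 classes in both libraries, 20 points in all, the named genes whose log2(CPM + 5) went most closely with that of TXNIP were SLC1A3 (Pearson r 0.86), A4GALT (0.84), RNASE4, ITPRID2 and IQSEC1 (0.81 each). For ARRDC3 they were ADIPOR2 (0.86), RNF125, PRR5L, RNASEH2B and SAP30L, and for ARRDC4 FEM1C (0.78), TSPAN3, CWC22, ZNF655 and GLUL. MLXIPL had the closest companions, NALCN (0.97), RIMBP2 (0.97), SEMA3E (0.97), SNAP25 (0.96) and GNAO1 (0.96), which share its high level in endocrine-like nuclei. The points of a library share its depth and its free RNA, 9203 genes were compared for each, and ARRDC3 and ARRDC4 rest on few UMIs in most classes. Among the 4 genes themselves, r was 0.58 for TXNIP and ARRDC3, 0.04 for TXNIP and ARRDC4, and −0.61 for TXNIP and MLXIPL.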

How the data were processed

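The authors corrected UMIs, called barcodes by EmptyDrops and deposited raw UMI counts against Sscrofa11.1 per gene and barcode, before doublet removal and filters. The labels give Cell Ranger v3.1.0 and Seurat v3.1.1, and the file headers Cell Ranger v5.0.0. The 2 matrices, 1 for each library, had medians of 3216 (WT) and 1181.5 (PIGinH11) UMIs per barcode.

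The limits were 270 to 3700 genes, at most 10% of UMIs from mitochondrial genes and under 13000 UMIs in all. The methods print a UMI limit of 1300, which was tried as an alternative. Scrublet (scanpy v1.11.5) replaced DoubletFinder, and took out the top 0.8% by score per 1000 barcodes. From 2000 variable genes, without the listed, hormone, ribosomal protein and mitochondrial genes, 30 principal components were corrected with Harmony, written in numpy (v2.4.6). Louvain clusters (igraph v0.11.9, resolution 1) came from a graph of 20 shared neighbours. Clusters were named from at least 3 markers, and endocrine-like and immune-like nuclei were clustered again. UMIs were summed for each class and library. The exact intervals were from scipy v1.17.1. Thinning drew 500 UMIs without replacement. Gene ratios needed a minimum of 20 UMIs per library. Only the ratios and their intervals were tested on simulated data, with counts drawn from the acinar-like and beta-like sums.

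The 4 genes, the lists and the comparisons were chosen with earlier results of these data known. Named beside the 4 genes were, for each list and class, at most 4 genes with a 2-fold change by size, and the 5 genes most like each of the 4 in level among named genes that reached 100 UMIs in some class of both libraries. Further genes are given to describe a list and were chosen after their values were seen. 841 genes were named from the reference annotation. Promoter and protein sequences were not used here.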

Additional observations from a re-analysis of the deposited data

Results flagged for a closer look

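TXNIP had ratios past counting error in opposite directions in classes of the same 2 libraries. The log2 ratio was above 0 in acinar-like (1.20), ductal-like (1.21), beta-like (2.08), endothelial-like (0.35) and lymphocyte-like nuclei (2.36), and below it in stellate-like (−0.32), mural-like (−0.93) and macrophage-like nuclei (−0.83). Over 9 alternatives of the processing the macrophage-like ratio lay between −0.97 and −0.04, and over 10 the mural-like ratio lay between −1.99 and −0.49. Nuclei of 1000 to 2000 UMIs gave 469 and 475 CPM in stellate-like nuclei, and the lymphocyte-like value rests on 3 and 17 UMIs. In beta-like nuclei the ratio was 0.22 thinned and −1.12 at 1000 to 2000 UMIs, and the beta-like, ductal-like and lymphocyte-like levels lay below those that acinar RNA would carry by PRSS2. By the acinar markers, the beta-like levels lay below the carried ones and the ductal-like and lymphocyte-like levels above them.

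ARRDC4 also had both directions, with 2.01 in beta-like nuclei (5 and 13 UMIs) and 2.59 in macrophage-like nuclei (2 and 12 UMIs), against −1.07 in acinar-like, −1.38 in ductal-like and −1.15 in stellate-like nuclei. With 1 library in each group, none of these differences was tested between animals.

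Outside the named classes, TXNIP had a log2 ratio of 0.86 in the unnamed cluster led by XKR4 (258 CPM in WT and 469 CPM in PIGinH11). In the nuclei of endocrine clusters that stayed unnamed, most of them in clusters that acinar markers matched best, the ratio was 3.05 (54.8 and 452 CPM). It rests on 8 UMIs in 48 WT nuclei and 128 UMIs in 247 PIGinH11 nuclei, and these nuclei were unlike. INS had 7618 CPM in WT and 389 CPM in PIGinH11, and the acinar markers stood at 34.3% and 67.6% of the acinar-like level. Acinar RNA would carry 158 and 448 CPM of TXNIP in the unnamed cluster led by XKR4 and 242 and 620.2 CPM in the unnamed endocrine nuclei at their PRSS2 levels. By the acinar markers 78.2 and 403 CPM would be carried in the former and 126 and 570.2 CPM in the latter.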

How the results depend on the processing

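No paired analysis was possible because each group has 1 library, and no replicate could be left out. TXNIP in acinar-like nuclei (1.20) had a log2 ratio of 1.13 without doublet removal, 1.35 with a UMI limit of 1300, 1.14 without Harmony, 1.15 at Louvain resolution 2, 1.15 with the listed genes among the clustering genes, 0.92 with median-of-ratios scaling, 1.10 without enzyme, ribosomal protein and mitochondrial genes in the denominator, 1.15 with nuclei thinned to 500 UMIs and 1.62 with nuclei of 1000 to 2000 UMIs. Leaving out the enzyme-rich acinar cluster, chosen after seeing the data, gave 1.09. TXNIP in ductal-like nuclei (1.21) gave 1.60 without doublet removal, 0.51 with a UMI limit of 1300, 0.97 thinned and 0.38 at 1000 to 2000 UMIs. In beta-like nuclei (2.08) it gave 0.22 thinned and turned to −1.12 at 1000 to 2000 UMIs. In endothelial-like nuclei (0.35) it gave 1.04 with a UMI limit of 1300, 0.62 as the mean over nuclei and 0.74 thinned. In stellate-like nuclei (−0.32) it turned to 1.48 with a UMI limit of 1300 and 0.018 at 1000 to 2000 UMIs, and gave −0.0074 thinned. In acinar-like nuclei, ARRDC3 (0.93) gave 0.66 with median-of-ratios scaling and 1.24 thinned, ARRDC4 (−1.07) gave −1.34 with that scaling and −0.26 at 1000 to 2000 UMIs, and MLXIPL (2.12) gave 1.57 with a UMI limit of 1300 and 1.18 at 1000 to 2000 UMIs. ARRDC4 in ductal-like nuclei (−1.38) gave −0.83 thinned. ARRDC3 in stellate-like nuclei turned to −0.0074 thinned, and MLXIPL in beta-like nuclei to −0.27 with a UMI limit of 1300. The thinned shares of acinar-like nuclei with TXNIP became 10.8% in WT and 24.5% in PIGinH11 with a UMI limit of 1300, 24.6% and 49.7% when thinned to 1000 UMIs, and 48.5% and 54.2% unthinned. Of the listed genes, 8 were 2-fold higher in ductal-like nuclei, 5 with median-of-ratios scaling and 2 with a minimum of 50 UMIs. Over all genes compared in this class, 11.8% were 2-fold higher in the main setting. The cause of these shifts was not tested, beyond the smaller number of nuclei, UMIs or genes that some settings leave. Over 22 log2 ratios, 20 of 237 alternatives gave the other sign, and 5 of these were of ratios whose interval left out 0. Outside the exocrine classes ARRDC3 and ARRDC4 had at most 50 UMIs per library.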
